A study of Mus musculus with 9 samples.

Results

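The genes described here are 10 that handle the entry of fatty acids into liver cells and their carriage inside them: Cd36, Fabp1, Fabp2, Fabp4, Fabp5, Slc27a1, Slc27a2, Slc27a4, Vldlr and Lpl. They were taken by symbol from a list, and all 10 were found among the 23337 genes of the count tables. Livers of 9 wild-type mice were taken in the fed state. The 3 ND mice ate normal chow, the 3 HFD mice a diet with 60% fat, and the 3 HFD_HDCA mice that fat-rich diet plus 0.25% hyodeoxycholic acid, a secondary bile acid. Feeding began at 8 weeks of age and lasted 12 weeks. Strain, sex, cages and litters are not given in the sources used here, and the p-values rest on the variation among these livers alone, which may be technical in part. Whole liver was sequenced, and in such samples fewer cells of a type cannot be told apart from less RNA per cell.

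A hepatocyte takes up fatty acids released by adipose tissue and fatty acids carried in lipoproteins. At the membrane, the scavenger receptor CD36 and the fatty acid transport proteins of the Slc27a family promote entry, and the Slc27a proteins also act as acyl-CoA synthetases that trap the fatty acid as its CoA ester. In the cytosol, small fatty acid binding proteins of the Fabp family solubilise the ligand and deliver it to organelles and to nuclear receptors. Lipoprotein lipase (Lpl) frees fatty acids from circulating triglyceride, and the VLDL receptor (Vldlr) takes up triglyceride-rich particles. Several of these genes are textbook targets of PPARα, the fatty acid receptor named in the title of the series.

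PPARα binds DNA with RXR at a direct repeat of a short half-site, and for this reason the 250 bases before the starts listed by RefSeq were read for it. RefSeq windows on GRCm38.p6, the assembly of mm10, were matched for 7 of the 10 genes, with 10 windows in all, and the remaining 3 are Fabp4, Fabp5 and Lpl. The repeat was searched as AGGNCANAGGNCA on both strands over the whole window, from 250 bases before to 50 after the start. It occurred in 1 of the 10 windows, that of Fabp1, against 0.381% of all 32851 mouse windows. The single half-site AGGTCA was then searched on both strands in the 250 bases before the start, where it was also counted when it lay inside the longer repeat. It occurred in 3 of the 10 windows, those of Fabp1, Slc27a2 and Cd36, and in 14.0% of all windows. The 3 stretches are shown because they hold these matches, each read 5′ to 3′ on the gene's strand, with the match in capitals (the whole repeat for Fabp1, the half-site for the other two, all on the opposite strand).
Fabp1, chr6:71199782-71199854: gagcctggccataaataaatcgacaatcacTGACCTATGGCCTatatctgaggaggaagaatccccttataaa
Slc27a2, chr2:126552784-126552849: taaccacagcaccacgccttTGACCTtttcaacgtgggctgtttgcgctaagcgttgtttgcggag
Cd36, chr5:17836079-17836144: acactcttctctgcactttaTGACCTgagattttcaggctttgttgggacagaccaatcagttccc
The Fabp1 repeat ran from 67 to 55 bases before the start. A second half-site lay 9 bases before the Fabp1 start. The half-site began 220 bases before the Slc27a2 start and 228 bases before the Cd36 start. The Cd36 window, 17835847 to 17836146 on the minus strand, belongs to a start inside the gene's span, whose outermost start at 17888959 was not read. Likewise, every Slc27a1 window belongs to a start inside its span, and its outermost start at 71568728 had no window of its own. A match in any of these windows is a description of the letters and not a measured binding site.

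Levels of different genes were compared as FPKM, which the authors deposited and which corrects for transcript length as well as depth. Fabp1, the liver fatty acid binding protein, stood far above the others, at 10406 ± 1867 FPKM in ND, 15326 ± 1519 in HFD and 15073 ± 6232 in HFD_HDCA (SD, n = 3 each). It alone took 0.435 ± 0.0677% of the reads on genes in ND and 0.595 ± 0.0518% in HFD (SD, n = 3 each). Slc27a2, a fatty acid transport protein of liver, came next at 527 ± 41.8 FPKM in ND, and Fabp2, named for the intestine, at 108 ± 13.03 (SD, n = 3 each). These top 3 ranks were the same in every diet and their ranges over livers did not overlap. In ND the order continued with Fabp5, Cd36 and Fabp4 at 19.5, 15.2 and 13.2 FPKM, where each overlapped its neighbour, then Slc27a4 and Lpl at 7.66 and 6.85 FPKM, which also overlapped. Slc27a1 followed at 1.79 FPKM and Vldlr was lowest at 0.235 FPKM. In HFD_HDCA, Slc27a1 stood at 6.25 ± 1.39 FPKM (SD, n = 3), where its range overlapped those of Slc27a4 and Lpl.

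**Figure D1:**
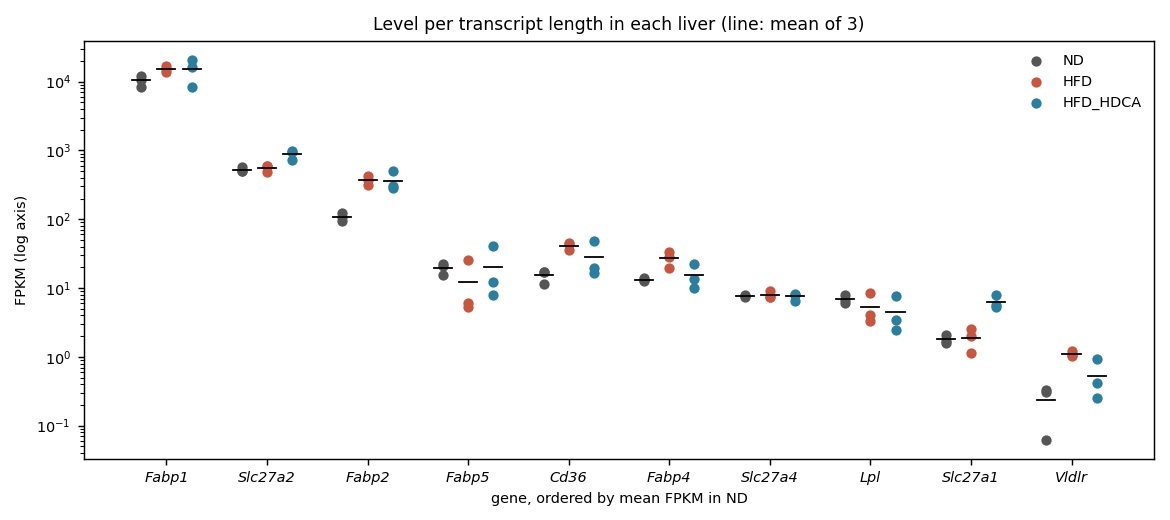
FPKM of the 10 genes in each liver on a log axis, ordered by their mean in ND, with 3 points per diet and a line at each mean. Fabp1, Slc27a2 and Fabp2 hold the top ranks in every diet, and Slc27a1 lies at 1.79 FPKM in ND and 6.25 in HFD_HDCA.

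In the tests, 2 transport protein genes rose with hyodeoxycholic acid on the high-fat diet, Slc27a1 by 3.52 times and Slc27a2 by 1.72 times, and 1 binding protein gene, Fabp2, rose by 3.20 times with the high-fat diet itself. The values per liver below are CPM, counts per mega-read of library size, scaled with TMM factors, and a gene was called changed when edgeR's quasi-likelihood test gave an adjusted p under 0.05 over all 12587 genes tested. All 10 genes passed the filter on low counts. HFD against ND changed 1 of the 10 (1 higher, 0 lower), where 0.953% of all genes tested were changed, 0.477% higher and 0.477% lower. HFD_HDCA against HFD changed 2 (2 higher, 0 lower), against 3.40% of all genes, 1.67% higher and 1.73% lower. HFD_HDCA against ND changed 3 (3 higher, 0 lower), against 6.47% of all genes, 3.65% higher and 2.82% lower. By edgeR, 0, 1 and 0 of the 10 were lower at an unadjusted p under 0.05. No lower call came from DESeq2 in any of them. The median log2 fold change of the 10 was 0.22, 0.04 and 0.64 in the same order, beside 0.02, -0.00203 and 0.03 over all genes tested. Libraries of the groups compared did not overlap for 5, 3 and 3 of the 10, against 20.1, 22.4 and 33.9% of all genes. Each pair of these comparisons shares a group of livers, so they are not independent of each other.

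**Figure D2:**
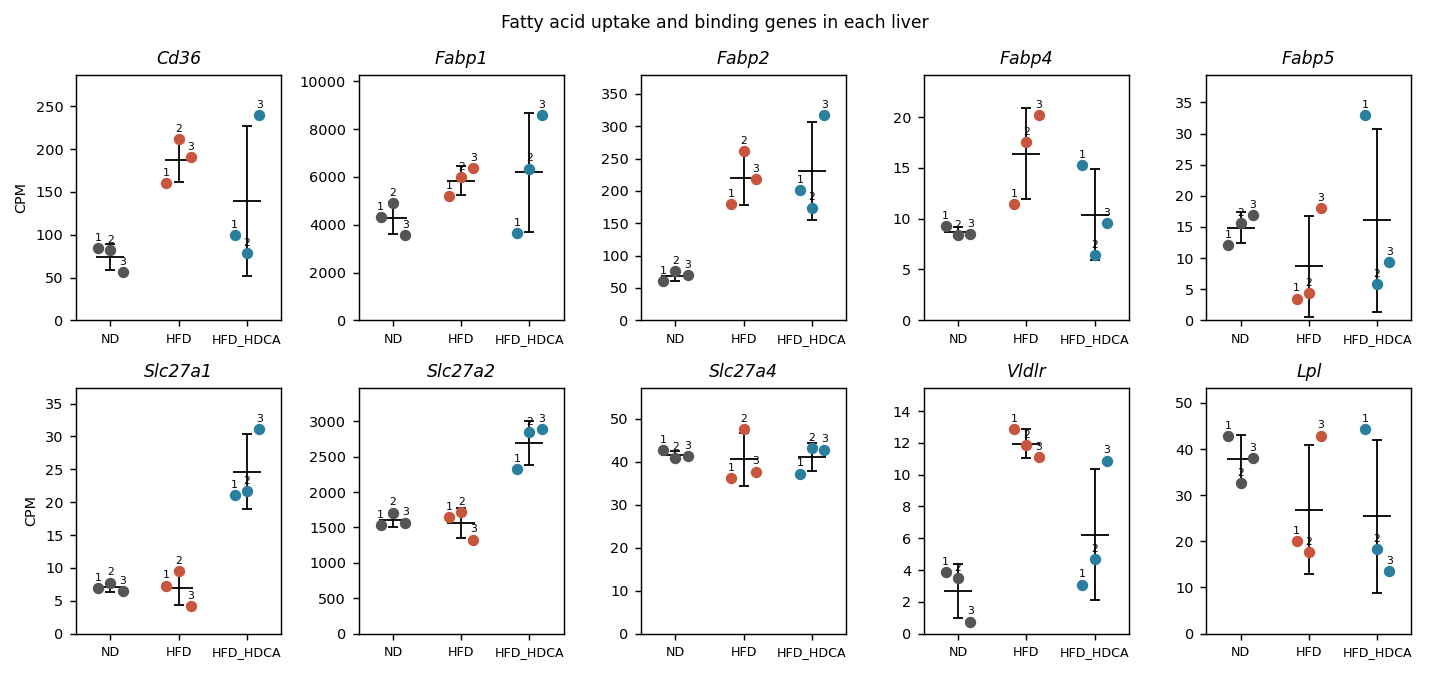
CPM of each gene in the 9 livers, with the replicate number beside each point, a dash at the mean of 3 livers and bars of 1 SD, and each axis starting at 0. The HFD_HDCA points of Slc27a1 (21.0 to 31.2 CPM) and Slc27a2 (2328 to 2894 CPM) lie above all points of both other diets, and the ND points of Fabp2 (60.4 to 75.8 CPM) lie below all others.

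**Figure D3:**
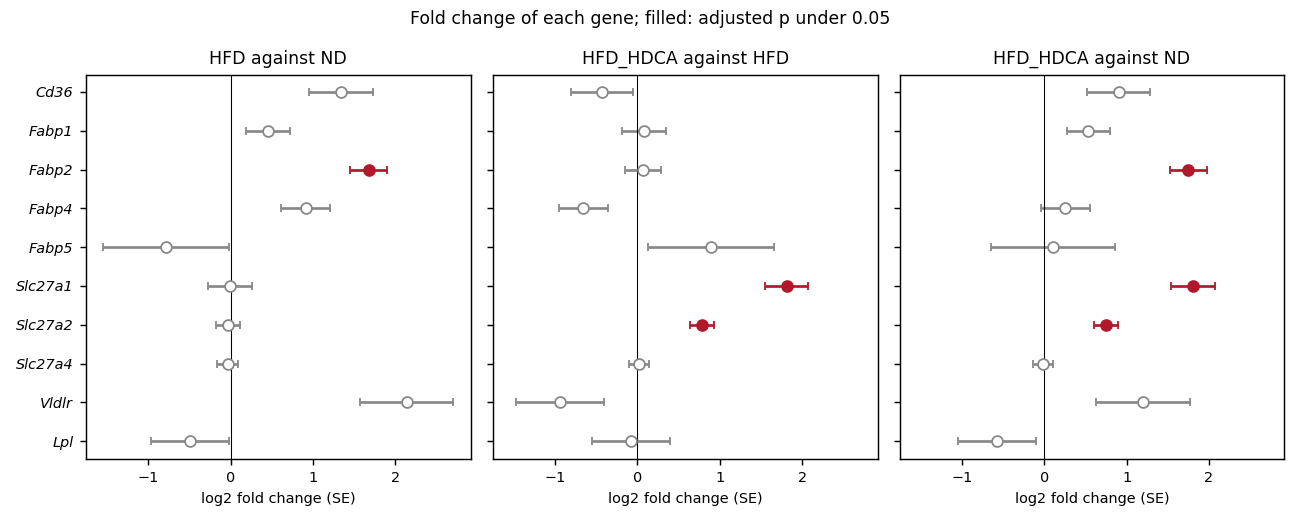
Log2 fold change with its standard error for each gene in the 3 comparisons, with filled points for an adjusted p under 0.05. Fabp2 is filled in both comparisons with ND, and Slc27a1 and Slc27a2 in both comparisons that hold HFD_HDCA.

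Slc27a1 (chromosome 8, 71568728 to 71587307, GRCm38.p6) encodes FATP1, a transport protein best known from muscle and adipose tissue. It stood at 6.92, 7.75 and 6.42 CPM in ND 1 to 3, at 7.31, 9.50 and 4.22 in HFD 1 to 3 and at 21.0, 21.7 and 31.2 in HFD_HDCA 1 to 3. The HFD_HDCA livers lay above all 6 others, while ND and HFD overlapped. It rose from 7.01 ± 2.65 CPM in HFD to 24.6 ± 5.66 with the bile acid (SD, n = 3 each, log2 fold change 1.81 ± 0.26 (SE), edgeR adjusted p = 0.00872). Against ND the log2 fold change was 1.81 ± 0.26 (SE, edgeR adjusted p = 0.00542). HFD against ND gave -0.00415 ± 0.27 (SE, edgeR adjusted p = 0.997). Both rises were called in all 20 alternative settings, including each of the 9 fits without 1 liver.

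Slc27a2 (chromosome 2, 126553024 to 126588243) encodes FATP2, which imports long-chain fatty acids in hepatocytes and activates very long-chain fatty acids to their CoA esters. Its levels were 1528, 1708 and 1567 CPM in ND, 1649, 1715 and 1328 in HFD and 2328, 2850.05 and 2894 in HFD_HDCA. All 3 HFD_HDCA livers were higher than the other 6. It rose from 1564 ± 207 CPM in HFD to 2691 ± 315 (SD, n = 3 each, log2 fold change 0.78 ± 0.15 (SE), edgeR adjusted p = 0.0198), and from 1601 ± 94.7 CPM in ND (log2 fold change 0.75 ± 0.15 (SE), edgeR adjusted p = 0.0163). In edgeR fits without 1 liver, the adjusted p against HFD was 0.0704 without HFD 3 and 0.0783 without HFD_HDCA 3. Against ND it was 0.0904, 0.0509 and 0.0698 without ND 1, ND 2 and ND 3 and 0.0647 without HFD_HDCA 3. A long noncoding RNA gene on the opposite strand, Gm26697, overlaps Slc27a2 and was not counted on its own. With the strand setting unknown, any reads of it cannot be told apart from those of Slc27a2.

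Slc27a4 (chromosome 2, 29802634 to 29817522) encodes FATP4, a transport protein and acyl-CoA synthetase prominent in intestine and skin. It stood at 42.7, 41.0 and 41.2 CPM in ND, 36.2, 47.7 and 37.7 in HFD and 37.3, 43.1 and 42.8 in HFD_HDCA. The 3 diets overlapped, and the log2 fold changes were -0.04 ± 0.12 for HFD against ND, 0.02 ± 0.12 for HFD_HDCA against HFD and -0.02 ± 0.12 for HFD_HDCA against ND (SE, edgeR adjusted p = 0.944, 0.948 and 0.938). Its ND livers had the smallest relative spread of all 10 genes in that diet, an SD of 2.20% of the mean.

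Cd36 (chromosome 5, 17781690 to 17888959), the fatty acid translocase, stood at 84.5, 81.7 and 56.2 CPM in ND, 160.4, 212 and 191 in HFD and 99.3, 78.5 and 239 in HFD_HDCA. All HFD livers lay above all ND livers, whereas HFD_HDCA 3 was the highest of the 9 and HFD_HDCA 1 and 2 lay below every HFD liver. None of its comparisons passed. The log2 fold change of HFD against ND was 1.34 ± 0.39 (SE, edgeR adjusted p = 0.200), and it passed with DESeq2 (adjusted p = 0.00583), in a fit of the 2 diets alone (edgeR adjusted p = 0.0198) and without HFD_HDCA 3 (edgeR adjusted p = 0.0143). HFD_HDCA against HFD gave -0.43 ± 0.38 and HFD_HDCA against ND 0.91 ± 0.38 (SE, edgeR adjusted p = 0.537 and 0.176). Without HFD_HDCA 3 these were -1.08 and 0.26 on the log2 scale (edgeR adjusted p = 0.0510 and 0.483). The HFD_HDCA livers spread 3.05 times from lowest to highest, against 1.32 times in HFD.

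Among the binding proteins, Fabp2 (chromosome 3, 122895072 to 122899506) was the gene that changed. It encodes a protein best known from enterocytes, where it binds dietary long-chain fatty acids. Its levels were 60.4, 75.8 and 69.8 CPM in ND, 179, 262 and 218 in HFD and 201, 174 and 317 in HFD_HDCA. Every liver on the high-fat diet, with or without bile acid, was above every ND liver. It rose from 68.7 ± 7.74 CPM in ND to 231 ± 75.6 in HFD_HDCA (SD, n = 3 each, log2 fold change 1.75 ± 0.23 (SE), edgeR adjusted p = 0.00326), a call that held in all 20 alternatives. The rise in HFD against ND was 1.68 ± 0.23 on the log2 scale (SE, edgeR adjusted p = 0.0106), and its adjusted p was 0.0568 without ND 1 and 0.0630 without ND 3. HFD_HDCA differed from HFD by 0.07 ± 0.22 (SE, edgeR adjusted p = 0.877). The enterocyte markers Sis and Rbp2 had 0 reads in all 9 livers, and the 6 enterocyte markers in the tables summed to 0.116 to 0.379 CPM. An antisense RNA that overlaps Fabp2, 4933405D12Rik, was assigned 0 to 5 reads per liver. Whether the counting used strand is not given in the sources used here, so reads of this pair cannot be told apart.

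Fabp1 (chromosome 6, 71199879 to 71205034) encodes the abundant binding protein of hepatocytes, which carries bile acids as well as fatty acids. It stood at 4318, 4910.2 and 3579.8 CPM in ND, at 5184, 5998 and 6363 in HFD and at 3639, 6354 and 8574 in HFD_HDCA. HFD lay above ND in all livers, but HFD_HDCA ran from 1 liver within the ND range to the highest of the 9. The log2 fold changes were 0.45 ± 0.26 for HFD against ND, 0.08 ± 0.26 for HFD_HDCA against HFD and 0.54 ± 0.26 for HFD_HDCA against ND (SE, edgeR adjusted p = 0.574, 0.882 and 0.227). The last of these passed without HFD_HDCA 1, at 0.80 on the log2 scale and an edgeR adjusted p of 0.0338.

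Fabp4 and Fabp5 lie close together on chromosome 3 (10204342 to 10208616 and 10012585 to 10016610). Both are best known from cells other than hepatocytes, Fabp4 from adipocytes, endothelial cells and macrophages, and Fabp5 from epithelial cells and macrophages. Fabp4 stood at 9.26, 8.40 and 8.44 CPM in ND, 11.4, 17.5 and 20.2 in HFD and 15.3, 6.39 and 9.57 in HFD_HDCA. Its HFD livers lay above the ND livers, and HFD_HDCA overlapped both. The log2 fold change was 0.91 ± 0.29 for HFD against ND and -0.66 ± 0.29 for HFD_HDCA against HFD (SE, edgeR adjusted p = 0.245 and 0.227). Without both HFD 1 and HFD_HDCA 1 these were 1.09 and -1.22, with edgeR adjusted p of 0.0118 and 0.00985. HFD 1 had the lowest Fabp4 of its group and HFD_HDCA 1 the highest of its group. Each of the 2 comparisons was called in this 1 of 20 alternatives only, and in 0 of the 9 fits without 1 liver. HFD_HDCA against ND gave 0.26 ± 0.30 (SE, edgeR adjusted p = 0.616).

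Fabp5 was the most variable of the 10 within the high-fat groups, with an SD of 94.6% of the mean in HFD and 91.8% in HFD_HDCA against 16.8% in ND. It stood at 12.1, 15.7 and 16.9 CPM in ND, 3.47, 4.39 and 18.1 in HFD and 32.9, 5.81 and 9.39 in HFD_HDCA. Only HFD 3 and HFD_HDCA 1 reached or passed the ND range, and the diets overlapped in each comparison. Its log2 fold changes were -0.78 ± 0.76, 0.89 ± 0.76 and 0.11 ± 0.75 for HFD against ND, HFD_HDCA against HFD and HFD_HDCA against ND (SE, edgeR adjusted p = 0.769, 0.532 and 0.946). The second turned to -0.18 and the third to -0.97 without HFD_HDCA 1. Without HFD 3 the first was -1.92 and the second 2.02 (edgeR adjusted p = 0.436 and 0.238).

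The lipoprotein genes did not pass in any comparison. Vldlr (chromosome 19, 27216480 to 27254231) stood at 3.85, 3.47 and 0.752 CPM in ND, 12.9, 11.9 and 11.1 in HFD and 3.09, 4.71 and 10.9 in HFD_HDCA. All HFD livers lay above all livers of both other diets, HFD_HDCA 3 only just below them. Its means were 11.95 ± 0.901 CPM in HFD and 2.69 ± 1.69 in ND (SD, n = 3 each), a ratio of 4.44 and the widest of the 10 genes in that comparison. The log2 fold change was 2.14 ± 0.56 (SE, edgeR adjusted p = 0.162). DESeq2 called it (adjusted p = 0.00192), as did limma on log2(FPKM + 1), where the fold is compressed at this low level (log2 fold change 0.78, adjusted p = 0.0439). HFD_HDCA against HFD gave -0.94 ± 0.53 and HFD_HDCA against ND 1.199 ± 0.57 (SE, edgeR adjusted p = 0.336 and 0.221). Without HFD_HDCA 3 these were -1.61 and 0.52 on the log2 scale (edgeR adjusted p = 0.178 and 0.583).

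Lpl (chromosome 8, 68880555 to 68906932), low in adult hepatocytes and typical of adipose tissue, muscle and macrophages, stood at 42.9, 32.6 and 38.1 CPM in ND, 20.04, 17.7 and 42.9 in HFD and 44.4, 18.4 and 13.5 in HFD_HDCA. HFD 3 was level with the highest ND liver, ND 1 (both 42.9 CPM), and HFD_HDCA 1 lay above the ND range. The other livers of both high-fat groups lay below all ND livers. The log2 fold changes were -0.49 ± 0.47, -0.08 ± 0.47 and -0.58 ± 0.47 for HFD against ND, HFD_HDCA against HFD and HFD_HDCA against ND (SE, edgeR adjusted p = 0.762, 0.940 and 0.473). Without HFD_HDCA 1 the second was -0.75 and the third -1.25 (edgeR adjusted p = 0.350 and 0.129). The livers with high Lpl, HFD 3 and HFD_HDCA 1, were also those with high Fabp5.

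Markers of other cells and the state of single livers were read beside these values. All 9 hepatocyte markers were present in every liver and summed to 95488 to 106462 CPM in ND, 113458 to 130434 in HFD and 120329 to 133368 in HFD_HDCA, so the sums of both fat-rich groups lay above ND. The single markers did not all follow the sum. In HFD against ND, 4 of the 9 had a positive log2 fold change (median -0.13), and in HFD_HDCA against ND 7 had (median 0.16). By edgeR, 2 of them were lower in HFD_HDCA against ND, Hnf4a and Tat, and 0 changed in HFD against ND (4 at an unadjusted p under 0.05, 0 by DESeq2) or in HFD_HDCA against HFD (2 at an unadjusted p under 0.05). DESeq2 had 1 higher and 1 lower in HFD_HDCA against HFD, and 1 higher and 2 lower in HFD_HDCA against ND. The part of this difference in the values of the 10 genes was not tested. Muscle markers summed to at most 0.303 CPM. The 12 macrophage and Kupffer cell markers summed to 435 to 512 CPM in ND, 159 to 967 in HFD and 379 to 743 in HFD_HDCA, with HFD 3 and HFD_HDCA 1 highest in their groups, and edgeR called 0 of the 11 tested in each comparison (1, 0 and 1 at an unadjusted p under 0.05, 0 by DESeq2). Single markers went different ways. Higher in HFD 3 than in HFD 1 were Marco (228 against 4.12 CPM), Emr1 (112 against 26.5) and Cd5l (282 against 146). So were Csf1r (100 against 67.4), Timd4 (31.7 against 9.21), C1qa (73.8 against 55.3), Cd68 (14.3 against 10.4) and Gpnmb (0.521 against 0.0542). Lower were Clec4f (78.1 against 145), Vsig4 (43.5 against 50.1), Itgax (1.09 against 1.25) and Trem2 (0.521 against 1.14). The marker sum of HFD 1 was 516 CPM, just above the top of the ND range (512 CPM), and that of HFD 2 was the lowest of the 9 livers (159 CPM). In HFD 1 and HFD 2, Fabp5 (3.47 and 4.39 CPM) and Lpl (20.04 and 17.7 CPM) lay below all ND livers. The 10 liver endothelial markers summed to 357 to 401 CPM in ND, 217 to 396 in HFD and 349 to 382 in HFD_HDCA. The 8 adipocyte markers summed to 20.4 CPM in HFD 2, 5.37 in HFD 3 and 0.303 to 1.32 in the other 7 livers. Adipoq had 29 reads in HFD 2, 3 in HFD_HDCA 2, 1 in HFD 1 and 0 in the other 6 livers, HFD 3 included. Cfd stood at 11.4 CPM in HFD 2, 4.01 in HFD 3 and at most 1.08 in the others, and Cidea at 5.56, 1.35 and at most 0.541. Fabp4 was highest in HFD 3 and next in HFD 2. HFD 1 stood apart in the clock gene Dbp (85.8 CPM, against at most 14.6 in the others), and HFD_HDCA 1 in the acute phase gene Saa1 (3371 CPM, against at most 74.4). The part of these differences in the values of Fabp4, Fabp5 and Lpl was not tested.

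**Figure D4:**
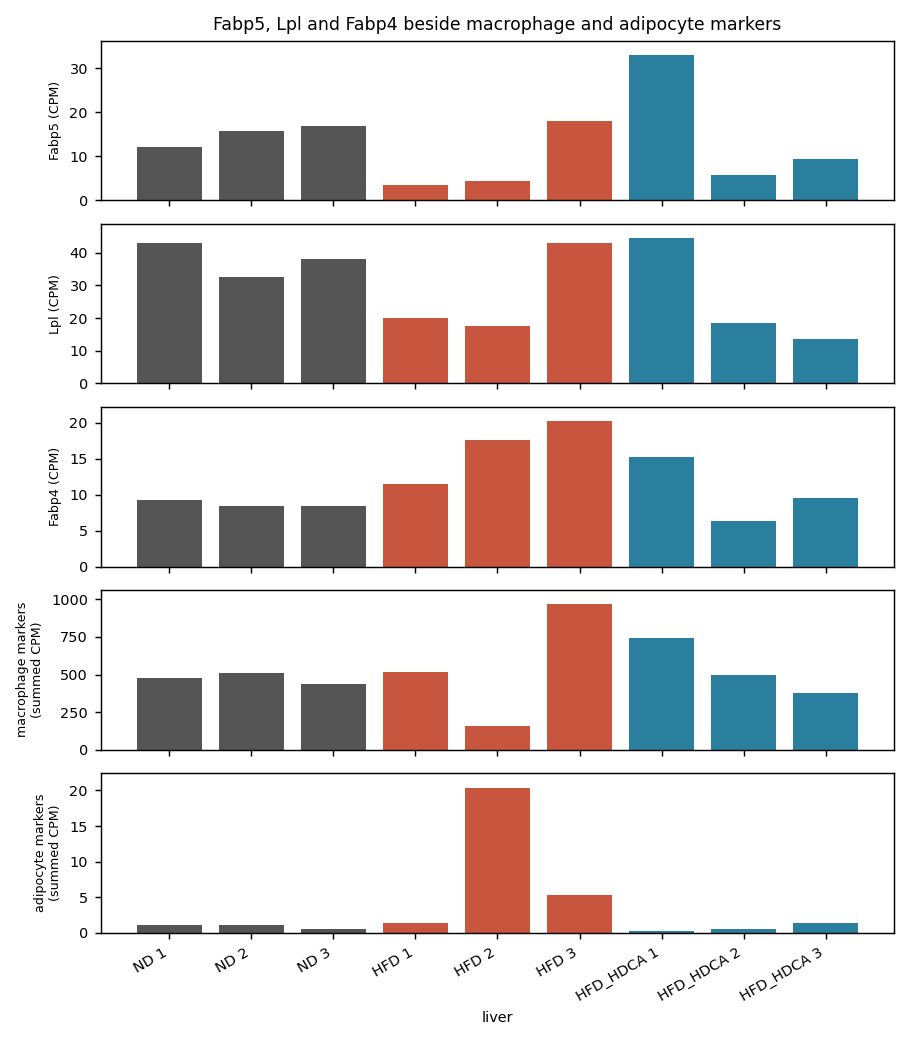
CPM of Fabp5, Lpl and Fabp4 and the summed CPM of macrophage and of adipocyte markers in each of the 9 livers, as bars from 0. HFD 3 (967 CPM) and HFD_HDCA 1 (743 CPM) have the highest macrophage marker sums and HFD 2 the highest adipocyte marker sum (20.4 CPM).

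Other genes of fatty acid uptake and lipoprotein handling were read in the same fits. Of 20 further genes of fatty acid transport and activation 11 were tested, and 0 changed in HFD against ND (1 at an unadjusted p under 0.05 by edgeR, 0 by DESeq2). In HFD_HDCA against HFD 0 changed by edgeR (3 at an unadjusted p under 0.05). Acsl1 and Fabp7, 2 of the 11, were called higher by DESeq2. Fabp7, a binding protein best known from brain, had an edgeR log2 fold change of 1.80 ± 0.53 (SE, adjusted p = 0.0951), at 11.4, 5.11 and 8.00 CPM in HFD_HDCA and 4.77, 1.31 and 0.990 in HFD. In HFD_HDCA against ND 1 rose, Acsl1, the main long-chain acyl-CoA synthetase of liver, and with DESeq2 Acsl4 was also called, as lower. Acsl1 stood at 1429.8, 1469.8 and 1526 CPM in ND, 1181, 2268 and 1534 in HFD and 2238, 3451 and 3140.2 in HFD_HDCA, with a log2 fold change against ND of 0.996 ± 0.23 (SE, edgeR adjusted p = 0.0329). The call held in 4 of the 9 fits without 1 liver. Against HFD its log2 fold change was 0.83 ± 0.23 (SE, edgeR adjusted p = 0.0809). In HFD against ND the smallest p values of the list were those of Acsl4 and Acsl5, both acyl-CoA synthetase genes, with log2 fold changes of -0.46 ± 0.19 and 0.50 ± 0.25 (SE, edgeR adjusted p = 0.378 and 0.508). Without HFD 1, Acsl5 passed (0.77 on the log2 scale, edgeR adjusted p = 0.0324). The medians of these 11 genes were 0.14, -0.15 and 0.13 in HFD against ND, HFD_HDCA against HFD and HFD_HDCA against ND.

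Of 21 genes that control lipoprotein lipase or take up lipoproteins 20 were tested. In HFD against ND 1 rose and 0 fell, in HFD_HDCA against HFD 0 rose and 2 fell, and in HFD_HDCA against ND 2 rose and 2 fell, with medians of 0.06, 0.02 and -0.01. The gene that rose with the high-fat diet was Gm6484 (now Angptl8), whose product takes part in inhibiting lipoprotein lipase. It stood at 17.3, 13.2 and 28.7 CPM in ND, 91.5, 159 and 75.3 in HFD and 24.0, 39.6 and 33.2 in HFD_HDCA. Its HFD livers lay above all others. It rose by 2.47 ± 0.37 on the log2 scale with the high-fat diet and fell by 1.75 ± 0.36 with the bile acid (SE, edgeR adjusted p = 0.0232 and 0.0388). Those calls held in 7 and 5 of the 9 fits without 1 liver. Lmf1, a chaperone needed for active lipase, fell from 42.4 ± 4.43 CPM in HFD to 30.8 ± 0.761 (SD, n = 3 each, edgeR adjusted p = 0.0379), and this call held in 2 of the 9 such fits. Against ND it also fell, as did the lipoprotein receptor gene Lrp1, while the lipase cofactor gene Apoc2 and the lipase activator gene Apoa5 rose. Their log2 fold changes were -0.48, -0.69, 1.22 and 0.65, with edgeR adjusted p of 0.0229, 0.0204, 0.0132 and 0.0436. They held in 5, 7, 7 and 3 of the 9 fits without 1 liver.

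All 12 genes of the list of nuclear receptors and their partners were tested. Rxrg, a retinoid X receptor gene, rose from 3.68 ± 0.494 CPM in ND to 7.83 ± 1.59 in HFD and 6.54 ± 0.838 in HFD_HDCA (SD, n = 3 each, edgeR adjusted p = 0.0322 and 0.0382), in 3 and 2 of the 9 fits without 1 liver. Hnf4a, a hepatocyte transcription factor gene, fell from 746 ± 35.2 CPM in ND to 535 ± 54.5 in HFD_HDCA (SD, n = 3 each, edgeR adjusted p = 0.0431), in 2 of 9 such fits. In HFD_HDCA against HFD 0 were called (2 at an unadjusted p under 0.05 by edgeR, Pparg and Ncoa1), and DESeq2 called 1 lower, Pparg. Pparg, the adipocyte fatty acid receptor gene, was at 14.4, 18.5 and 14.8 CPM in HFD and 4.48, 7.67 and 10.95 in HFD_HDCA, without overlap, and its edgeR adjusted p was 0.0855. Ncoa1, a coactivator gene, was at 24.6 ± 2.28 CPM in HFD and 19.2 ± 3.41 in HFD_HDCA (SD, n = 3 each, edgeR adjusted p = 0.173). Medians over the 12 genes were 0.03, -0.19 and -0.26 in HFD against ND, HFD_HDCA against HFD and HFD_HDCA against ND.

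Genes with a like pattern were sought for Fabp2, Slc27a1, Slc27a2 and Vldlr, the 3 called genes and the uncalled gene with the smallest p. Log2 CPM was centred and scaled per gene over the 9 livers, and the distance to 8909 genes with a mean of at least 5 CPM was taken, where 0 is an identical pattern and the median distance was 4.24 to 4.30. The pattern nearest to Slc27a1 was that of Slc27a2, at a distance of 0.596, followed by Mmd, Dynlrb1 and Dnajc28 at 0.622 to 0.670. The pattern nearest to Slc27a2 was that of Gde1 at 0.510, followed by Mlycd, the malonyl-CoA decarboxylase gene, at 0.528, Mmd at 0.561 and Slc27a1. Mlycd stood at 89.2 to 105 CPM in ND, 86.2 to 99.4 in HFD and 120.1 to 138 in HFD_HDCA. For both transporters HFD 3 was the lowest of the 9 livers, as it was for Gde1 and Mlycd. Nearest to Fabp2 were Acnat2, an acyl-CoA amino acid N-acyltransferase gene, at 0.777, the bile acid uptake transporter gene Slc10a1 at 0.895, Slc16a7 at 0.931 and Wfdc2 at 0.976. Nearest to Vldlr were Impg2, Ank, Zfp672 and Serpinb8 at 0.950 to 1.09. These distances rest on 9 livers that share 3 diets and carry no test.

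**Figure D5:**
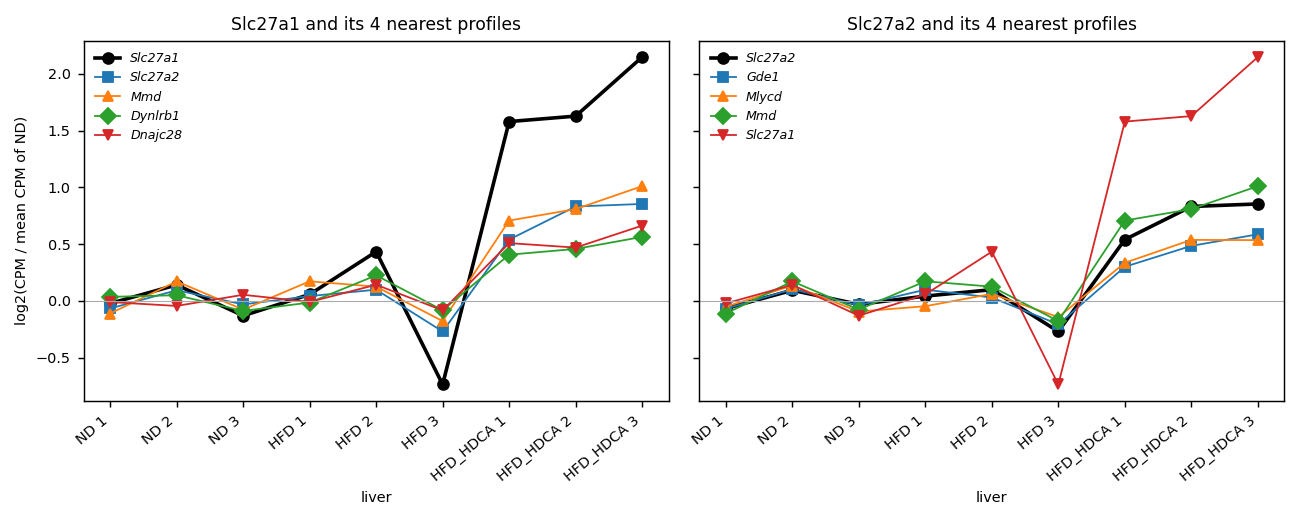
Log2 ratio of CPM to the ND mean in each liver for Slc27a1 (left) and Slc27a2 (right), black lines, with the 4 genes of nearest pattern in colour. The distance was taken on scaled values, so the genes share a shape and differ in size: Slc27a1 reaches 31.2 CPM in HFD_HDCA 3 against 6.42 to 7.75 in ND, a wider ratio than for Slc27a2.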

How the data were processed

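The authors deposited a pair of files for each of the 9 liver libraries. Per the labels, RNA was extracted with a lipid tissue kit and libraries were made with a TruSeq kit. The count tables hold raw whole-number counts per gene, made with HTSeq per the deposited file names, which also carry the word antisense. The HTSeq settings and the annotation are not given in the sources used here, so which strand was counted is unknown. The 9 hepatocyte markers summed to at least 95488 CPM in each library. The authors' Cufflinks tables hold FPKM, per the file headers. TopHat 1.3.2, Cufflinks 2.0.2 and the build mm10 appear in the submitters' processing notes. Reads on genes numbered 16994353 to 20509203 per library, 63.9 to 72.1% of the reads in a file, and the 5 classes of unassigned reads were left out. The limit that a count of 0 allows, 3 counts, is 0.146 to 0.177 CPM and covers counting error only. Reads aligned to several places made up 17.9 ± 1.43% in ND, 13.6 ± 0.356% in HFD and 15.3 ± 0.714% in HFD_HDCA (SD, n = 3 each). Libraries of a diet varied beyond counting error (chi-square per degree of freedom 11.7 to 96.4).

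The main test, in R 4.3.3, was that of edgeR 4.0.16 (filterByExpr, minimum count 10, TMM factors, robust quasi-likelihood F test, two-sided, all 9 libraries in 1 model), with Benjamini-Hochberg adjustment over 12587 genes. SE is the log2 fold change over the root of F. An exact permutation test of 3 livers against 3 cannot go below p = 0.1. DESeq2 1.42.0 and limma 3.58.1 on FPKM (genes with a failed estimate or a symbol damaged in some files left out), other scalings, filters, a replicate block and left-out libraries were alternatives, and the fits were checked on simulated data. The 10 genes, the pathway and marker lists and the naming rule were chosen with earlier results of these data known. Named beside the 10 were called genes of each pathway list, at most 4 by smallest p, or, where none was called, the 2 of smallest p, and the 4 nearest patterns for 4 of the genes (predicted Gm and Rik genes left out of these patterns). Older symbols were matched through RefSeq synonyms, and Muc2 was not analysed here.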

Additional observations from a re-analysis of the deposited data

How the results depend on the processing

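Each diet had 3 livers. The genes changed over all tested numbered 120, 428 and 815 in HFD against ND, HFD_HDCA against HFD and HFD_HDCA against ND, and ranged over 32 to 576, 127 to 977 and 196 to 1213 with 1 liver, or both HFD 1 and HFD_HDCA 1, left out. The lowest counts came without ND 3, HFD_HDCA 3 and ND 1, and the highest without both for the first and second and without HFD_HDCA 2 for the third. DESeq2 called 362, 1036 and 1321, unfiltered FPKM 272 in the second and 526 in the third, and a fit of the 2 diets alone 134 in the second. With log2(FPKM + 1), the first split into 97 higher and 64 lower against 60 and 60, and the second into 133 and 349 against 210 and 218, where the median over all genes moved by -0.1024 on the log2 scale. The cause was not tested.

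Of the 10 genes, HFD against ND called 3 with DESeq2, 2 with log2(FPKM + 1) and with the 2 diets alone, and 0 to 2 without livers. HFD_HDCA against HFD called 1 in unfiltered FPKM and with the 2 diets alone, and 1 to 3 without livers. HFD_HDCA against ND called 2 to 4 without 1 liver. The calls of Slc27a1 and that of Fabp2 in HFD_HDCA against ND held in all 20 alternatives each, that of Fabp2 in HFD against ND in 18, and those of Slc27a2 in 16 each. Against HFD, Slc27a2 missed the threshold with the 2 diets alone (adjusted p = 0.0951) and in unfiltered FPKM (adjusted p = 0.0600). The alternatives for the pathway genes were chosen after seeing the data. There, the Gm6484 calls in HFD against ND and HFD_HDCA against HFD missed the threshold with no filter (adjusted p = 0.0528 and 0.0704) and with the 2 diets alone (adjusted p = 0.0569 and 0.0521). With the 2 diets alone, edgeR also lost Rxrg in HFD against ND (adjusted p = 0.0583) and Lmf1 in HFD_HDCA against HFD (adjusted p = 0.119). In HFD_HDCA against ND, Hnf4a missed it with no filter (edgeR adjusted p = 0.0551). Unfiltered FPKM lost Acsl1, Rxrg and Hnf4a in that comparison (limma adjusted p = 0.0743, 0.0751 and 0.0730).

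Signs turned only for uncalled values, given here as log2 fold changes. In HFD against ND, Slc27a1 was 0.0138 with upper quartile factors, 0.0294 in FPKM + 1, filtered or not, and 0.0237 in FPKM + 0.1, Slc27a2 0.0708 and 0.0709, and Slc27a4 0.0495 and 0.0546. In HFD_HDCA against HFD, FPKM + 1 and FPKM + 0.1 gave -0.116 and -0.116 for Fabp1, -0.0778 and -0.0780 for Fabp2, and -0.0741 and -0.0827 for Slc27a4. In HFD_HDCA against ND they gave -0.243 and -0.271 for Fabp5, and upper quartile factors 0.0224 for Slc27a4. Without livers, HFD against ND ranged from -0.289 to 0.257 for Slc27a1, -0.106 to 0.0700 for Slc27a2 and -0.172 to 0.0350 for Slc27a4. HFD_HDCA against HFD ranged from -0.227 to 0.365 for Fabp1, -0.228 to 0.259 for Fabp2, -0.553 to 2.02 for Fabp5, -0.0561 to 0.151 for Slc27a4 and -0.915 to 0.427 for Lpl. HFD_HDCA against ND ranged from -0.130 to 0.517 for Fabp4, -0.972 to 0.516 for Fabp5 and -0.0526 to 0.0434 for Slc27a4.

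The labels do not say what a replicate number marks. Same-numbered livers of different diets correlated between -0.149 and 0.153 in their deviations from the group means, 1 of 9 pairs over 0.1, and 2 of 9 libraries correlated best with their own number, so the numbers were not read as pairing. With the replicate block, 82, 328 and 715 genes changed, and 1, 2 and 3 of the 10. Fabp5 in HFD_HDCA against ND was then -0.0553. Calls of pathway genes lost under the block were Gm6484 in HFD against ND and HFD_HDCA against HFD (adjusted p = 0.0660 and 0.0679), Lmf1 in HFD_HDCA against HFD (adjusted p = 0.0590), and Apoa5 and Hnf4a in HFD_HDCA against ND (adjusted p = 0.0655 and 0.0677), and Acsl1 in HFD_HDCA against HFD was gained (adjusted p = 0.0469).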
